A study of Mus musculus with 24 samples.

Results

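Toll-like receptors are the membrane sensors through which macrophages and other cells recognise microbial lipids, proteins and nucleic acids, and Cd14 is the co-receptor that hands lipopolysaccharide to Tlr4. The 10 genes described here, Tlr1, Tlr2, Tlr3, Tlr4, Tlr6, Tlr7, Tlr8, Tlr9, Tlr13 and Cd14, were taken by symbol from a table of 56205 genes. The table holds RNA-seq read counts of whole livers from C57BL/6J mice kept for 20 weeks on a high-fat diet, named FFD in the labels, or on the control diet, with 12 libraries of poly(A)-selected RNA per diet. Neither a transgene nor a second treatment is given for either group, and the composition of FFD and the age of the mice at its start are not in the labels. The design text gives 6 mice per diet and sex, but no label assigns a library to a sex.

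The receptors divide by where they sense. Tlr1, Tlr2 and Tlr6 sit at the cell surface, where Tlr2 pairs with Tlr1 or Tlr6 to bind bacterial lipoproteins, and Tlr4 with its partner Ly96 binds lipopolysaccharide. Tlr3, Tlr7, Tlr8, Tlr9 and Tlr13 sense nucleic acids inside endosomes, and reach them with the help of the chaperone Unc93b1. Most of them signal through the adaptor Myd88, Tlr3 through Ticam1 and Tlr4 through both, which ends in NF-κB and interferon regulatory factors. In the liver, Kupffer cells and recruited monocytes carry most of these receptors, and gut-derived microbial products reach them through the portal vein.

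The sequence before the RefSeq transcription start was read for the receptors with an entry in the RefSeq promoter table (build GRCm38.p6). From it, 9 promoters of 7 of the 10 genes were used. Each window of 250 bases before the start was searched on both strands for 4 short motifs: a κB form (GGG, any 5 bases, CC), the core of the macrophage factor PU.1 (GAGGAA), an interferon-stimulated element form (GAAA, any 2 bases, GAAA) and an AP-1 form (TGANTCA). Among all 32851 promoters of the table these were present in 45.8%, 23.3%, 2.98% and 6.75%. The stretches below are shown because they belong to the receptor genes with the 2 largest changes (Tlr1 and Tlr9), to Tlr2 and Tlr13, and to Tlr3, the receptor whose level moved least. They are limited to the bases outside the annotated exons, and capitals mark a motif match. The stretch of Tlr3 lies inside the span of that gene in GENCODE M21 (chr8:45395665-45411080). It is therefore not upstream of the start annotated there.
Tlr1, chr5:64933564-64933808, minus strand: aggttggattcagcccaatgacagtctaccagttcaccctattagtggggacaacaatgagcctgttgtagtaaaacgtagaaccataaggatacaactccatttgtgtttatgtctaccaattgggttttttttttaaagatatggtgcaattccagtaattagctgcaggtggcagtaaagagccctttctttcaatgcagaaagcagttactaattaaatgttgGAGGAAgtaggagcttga
Tlr2, chr3:83841768-83841858, minus strand: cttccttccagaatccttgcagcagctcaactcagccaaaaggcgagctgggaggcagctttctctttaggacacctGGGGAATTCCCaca
Tlr9, chr9:106222348-106222597, plus strand: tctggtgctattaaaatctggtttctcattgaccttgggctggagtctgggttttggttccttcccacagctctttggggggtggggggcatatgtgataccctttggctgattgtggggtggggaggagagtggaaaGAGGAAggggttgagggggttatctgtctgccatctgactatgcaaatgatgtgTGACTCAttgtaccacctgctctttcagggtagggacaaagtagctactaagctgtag
Tlr13, chrX:106143025-106143203, plus strand: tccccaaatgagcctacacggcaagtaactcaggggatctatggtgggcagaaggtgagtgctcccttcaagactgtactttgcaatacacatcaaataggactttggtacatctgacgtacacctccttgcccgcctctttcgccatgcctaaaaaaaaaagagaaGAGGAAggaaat
Tlr3, chr8:45410381-45410452, minus strand: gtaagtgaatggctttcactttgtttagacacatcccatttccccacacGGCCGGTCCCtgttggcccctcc
Tlr2 carried 3 overlapping matches of the κB form, Tlr3 carried it 2 times, 1 of them in the stretch shown, and 1 of the 2 promoters of Tlr6 carried it 1 time. The PU.1 core was found before 4 genes, Tlr1, Tlr8, Tlr9 and Tlr13, in 1 copy each. For Tlr1 this was in 1 of its 2 promoters. The other window of Tlr1 (chr5:64932700-64932949), inside the annotated span of the gene, held no match of any motif. Tlr9 also held the AP-1 form, and the other promoter of Tlr6 held 2 overlapping matches of the interferon-stimulated form. That window of Tlr6 (chr5:64959167-64959416) also lies inside the annotated span of its gene. These matches describe the letters only, and whether a factor binds there was not measured.

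Total counts ran from 14468418 to 22112552 per library, and levels are given as CPM, a gene's counts brought to one common library size after scaling by trimmed means (TMM). A single count was worth 0.0394 to 0.102 CPM. Control replicate 10 had the lowest total and a scaling factor of 0.679, and held 1 count each of Tlr4, Tlr8 and Tlr9. FFD replicate 3 stood apart by neutrophil genes, with 702 counts of Mpo where no other library exceeded 10, and FFD replicate 9 by the cholangiocyte genes Krt19 and Epcam, at 1138 and 1376 counts against at most 192 and 333 elsewhere. Replicates 1 to 6 of each diet held 2664 to 6285 counts of the X-inactivation transcript Xist and replicates 7 to 12 held 0 to 3, which gave 2 sets of 12 libraries, the high-Xist and the low-Xist set. The Y-linked gene Ddx3y had 0 counts in every library of the high-Xist set and 448 to 1016 in every library of the low-Xist set. The hepatocyte genes marked the tissue as liver, with Alb, the gene of serum albumin, at 45211 ± 16127 CPM on FFD and 74355 ± 15791 CPM on control (SD, n = 12 each).

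Across the 24 livers, 8 of the 10 genes were higher on FFD and 0 were lower. A gene is called changed at an adjusted p of at most 0.01 (edgeR quasi-likelihood test, Benjamini-Hochberg over 17913 genes) with an absolute log2 fold change over 0.5. Of all genes tested 13.2% were called higher and 4.99% lower. The exceptions among the 10 were Tlr4, which missed the adjusted p, and Tlr3. The fitted log2 fold change was above 0 for all 10 and had a median of 1.47, against -0.03 over all genes tested. For none of the 10 did the diets separate completely over all 24 libraries, a pattern seen with FFD higher for 1.48% of genes. A two-sided permutation test of single genes on log2(CPM + 1) gave an unadjusted p of 2e-05, the smallest that its 100000 resamples can give, for Tlr1, Tlr2, Tlr7, Tlr9, Tlr13 and Cd14. It gave p = 4e-05 for Tlr6, p = 0.00016 for Tlr8, p = 0.00138 for Tlr4 and p = 0.124 for Tlr3. In whole liver, more cells of a kind and more RNA per cell cannot be told apart. The same 8 genes were called without control replicate 10, FFD replicate 3 and FFD replicate 9. Scaling to library totals alone moved the median over all genes to 0.26 and called 9 of the 10 members.

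**Figure D1:**
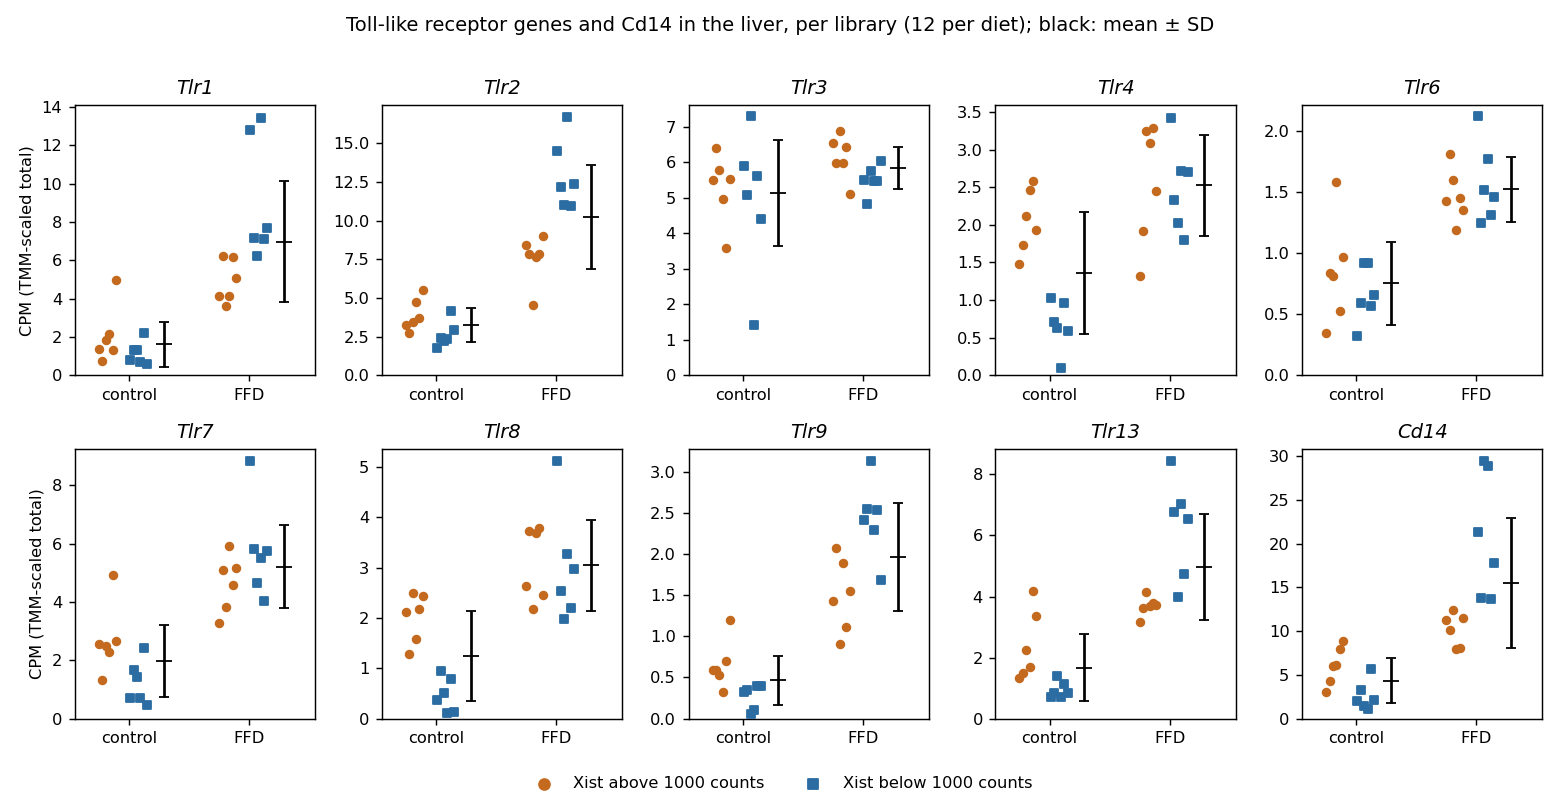
CPM of each gene in every liver library, control (left) and FFD (right), with circles for the high-Xist set, squares for the low-Xist set, and the mean ± SD of the 12 libraries in black. All 12 FFD libraries lie above the control median for every gene except Tlr3, whose control median of 5.52 CPM sits close to the FFD median of 5.86 CPM.

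Among the lipoprotein receptors, Tlr1 rose most. Its level ran from 3.62 to 13.4 CPM with a median of 6.22 on FFD, and from 0.592 to 4.98 CPM with a median of 1.31 on control. Every FFD library except 3 lay above the highest control library, which was replicate 6. The means were 6.98 ± 3.15 and 1.61 ± 1.19 CPM (SD, n = 12 each), a log2 fold change of 2.09 (SE 0.30, adjusted p = 8.17e-06, edgeR). Tlr1 spans chr5:64924679-64933563 on the minus strand of GRCm38, in 5 blocks of merged exons.

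Tlr2, the partner that both Tlr1 and Tlr6 need, had the highest level per kilobase of exon of the 9 receptors. Its FFD libraries ran from 4.53 to 16.7 CPM with a median of 9.95, and its control libraries from 1.78 to 5.54 CPM with a median of 3.07. Of the 12 FFD libraries 11 exceeded every control library, the most of any member, and the remaining one was FFD replicate 3. The log2 fold change was 1.65 (SE 0.19, adjusted p = 9.64e-07, edgeR), the smallest adjusted p of the 10 genes. Tlr2 lies at chr3:83836272-83841767 on the minus strand, in 3 exon blocks.

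Tlr6, the other partner of Tlr2, had the lowest level per kilobase on FFD. It ran from 1.19 to 2.12 CPM with a median of 1.46 on FFD, and from 0.324 to 1.59 CPM with a median of 0.737 on control. Only control replicate 4 reached into the FFD range, and 4 FFD libraries lay above it. The log2 fold change was 1.01 (SE 0.20, adjusted p = 0.000362, edgeR). Tlr6 (chr5:64952031-64960097, minus strand) neighbours Tlr1, and the coding sequences of 2385 and 2418 bases share 6 identical stretches of 50 or more bases. The longest, of 229 bases at chr5:64925537-64925765 in Tlr1 and chr5:64953828-64954056 in Tlr6, is shown because the bases of a read inside it match both genes.
Tlr1 and Tlr6, shared coding stretch: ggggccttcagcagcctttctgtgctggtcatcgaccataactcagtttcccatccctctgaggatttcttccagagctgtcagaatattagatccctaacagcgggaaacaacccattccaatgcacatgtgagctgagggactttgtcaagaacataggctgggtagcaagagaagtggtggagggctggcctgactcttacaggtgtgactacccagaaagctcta
Of the 50-base words in the annotated transcripts, 13.6% of those of Tlr1 and 12.3% of those of Tlr6 occur in the other gene. How such reads were counted is not given in the sources used here, so the division of counts between Tlr1 and Tlr6 is uncertain.

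Of the genes for the lipopolysaccharide receptor Tlr4 and its co-receptor Cd14, only Cd14 was called. Cd14 ran from 7.97 to 29.5 CPM with a median of 13.1 on FFD, and from 1.12 to 8.91 CPM with a median of 3.77 on control. Of the FFD libraries 10 lay above the highest control library. The means were 15.5 ± 7.41 and 4.33 ± 2.58 CPM (SD, n = 12 each), and their log2 fold change was 1.83 (SE 0.30, adjusted p = 3.88e-05, edgeR). The 2 highest FFD values, 29.5 and 28.9 CPM, were replicates 9 and 10, and without the 3 libraries that stood apart the log2 fold change of Cd14 was 1.64 (adjusted p = 0.000116).

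Tlr4, the receptor itself, ran from 1.32 to 3.43 CPM with a median of 2.58 on FFD, and from 0.102 to 2.58 CPM with a median of 1.25 on control. All 12 FFD libraries exceeded the control median, and 6 exceeded every control library. The log2 fold change was 0.87 (SE 0.28) with an adjusted p of 0.0159 by edgeR, just outside the limit. DESeq2 gave 0.89 with an adjusted p of 0.00275 and limma-voom 1.04 with 0.00591, both inside it. By edgeR within the sets of libraries, the log2 fold change was 0.33 in the high-Xist set, not called, and 1.86 in the low-Xist set, called. Tlr4 lies at chr4:66827584-66930284 on the plus strand, in 6 exon blocks.

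Of the endosomal receptors, Tlr9, Tlr13, Tlr7 and Tlr8 rose and Tlr3 was not called. Tlr9, which senses unmethylated CpG DNA, ran from 0.906 to 3.13 CPM with a median of 1.98 on FFD, and from 0.0576 to 1.20 CPM with a median of 0.396 on control. In 10 FFD libraries it lay above every control library. Its log2 fold change of 2.03 (SE 0.29, adjusted p = 9.38e-06, edgeR) came second to that of Tlr1, and its control level per kilobase was the lowest of the 10 genes, with 1 to 26 counts per control library. Tlr9 spans chr9:106222598-106226883 on the plus strand, in 2 exon blocks.

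Tlr13, a receptor of bacterial ribosomal RNA that mice have and humans lack, ran from 3.17 to 8.45 CPM with a median of 4.07 on FFD, and from 0.703 to 4.17 CPM with a median of 1.35 on control. Only 5 FFD libraries lay above control replicate 5, the highest control. The log2 fold change was 1.57 (SE 0.27, adjusted p = 6.43e-05, edgeR). Tlr13 lies at chrX:106143204-106160493 on the plus strand.

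Tlr7, which senses single-stranded RNA, and its close relative Tlr8 neighbour each other on the X chromosome, at chrX:167304929-167330558 and chrX:167242696-167264329 on the minus strand. Tlr7 ran from 3.27 to 8.84 CPM with a median of 5.12 on FFD, and from 0.460 to 4.93 CPM with a median of 1.97 on control. Tlr8 ran from 1.99 to 5.12 CPM with a median of 2.80 on FFD, and from 0.102 to 2.50 CPM with a median of 1.12 on control. The diets overlapped for both genes, with 7 and 8 FFD libraries above the highest control. Their log2 fold changes were 1.38 (SE 0.26, adjusted p = 0.000192) for Tlr7 and 1.25 (SE 0.34, adjusted p = 0.00427) for Tlr8 by edgeR.

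Tlr3, the sensor of double-stranded RNA, was the member with the smallest difference and the tightest level on FFD. It ran from 4.82 to 6.88 CPM with a median of 5.86 on FFD, and from 1.43 to 7.31 CPM with a median of 5.52 on control. No FFD library exceeded the highest control library, and the lowest value of all was that of control replicate 10. The log2 fold change was 0.18 (SE 0.15, adjusted p = 0.355, edgeR), and it was 0.07 (adjusted p = 0.624) without the 3 libraries that stood apart. The SD was 10.2% of the mean on FFD, against 17.6% to 47.7% for the other 9 genes. Of the exonic bases of Tlr3 (chr8:45395665-45411080, minus strand), 7.32% overlap the antisense gene Gm45542, and whether strand was used in counting is not given in the sources used here.

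Among the 10 genes, per kilobase of exon, Cd14 stood highest and Tlr2 led the receptors on both diets. Outside the 10, Tlr12 had a higher mean than Cd14 on both diets (11.8 CPM per kb on FFD and 8.23 on control). Tlr5 had a higher mean than Tlr2 on control, at 2.53 CPM per kb. On FFD, Cd14 reached 8.97 ± 4.28 CPM per kb, Tlr2 3.40 ± 1.12 and Tlr1 2.09 ± 0.941 (SD, n = 12). Tlr7, Tlr13, Tlr3 and Tlr8 followed between 1.28 and 0.850, and Tlr9, Tlr4 and Tlr6 between 0.565 and 0.409 CPM per kb. On control the order after Cd14 (2.50 ± 1.49) and Tlr2 (1.08 ± 0.368) was Tlr3 (0.984 ± 0.287), Tlr7, Tlr1, Tlr13, Tlr8, Tlr4, Tlr6 and Tlr9 (0.134 ± 0.0863). The ranges of mean ± SD of neighbours overlapped in both orders, apart from those of Cd14 and Tlr2 on FFD. The means of Tlr2 and Tlr1, of Tlr3 and Tlr8 and of Tlr8 and Tlr9 on FFD, and of Tlr3 and Tlr7 on control, lay farther apart than either SD. The 9 receptors summed to a median of 10.5 CPM per kb on FFD, from 7.70 to 17.1, and of 4.35 on control, from 1.93 to 7.46. This sum separated the diets narrowly in all 24 libraries, which none of the 9 receptors did alone. Of single genes 1.48% separated with FFD higher, but that share is no background for a sum of 9, and none for sums was computed. The sum leaves out Tlr5, Tlr11 and Tlr12, whose summed CPM overlapped, at 35.2 to 74.8 on FFD and 10.9 to 73.0 on control.

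The levels of these 9 receptors, without Tlr5, Tlr11 and Tlr12, can also be given as shares of their sum. Such shares restate the differences above, were not tested, and overlapped between the diets for each of the 9. A share can fall without a fall in level. The median of Tlr3 was 5.86 CPM on FFD and 5.52 CPM on control, while the sum of the 9 was higher on FFD. Tlr3 made up a median of 23.1% of the summed receptors per kb on control (11.7% to 40.8%) and 10.2% on FFD (6.17% to 17.2%). Tlr2 went from 23.5% to 31.8% and Tlr1 from 10.4% to 17.7%. On control, then, Tlr2 and Tlr3 had nearly the same share of the 9. On FFD Tlr2 had the largest and Tlr3 the fourth largest median share of the 9, after Tlr1 and Tlr7.

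**Figure D2:**
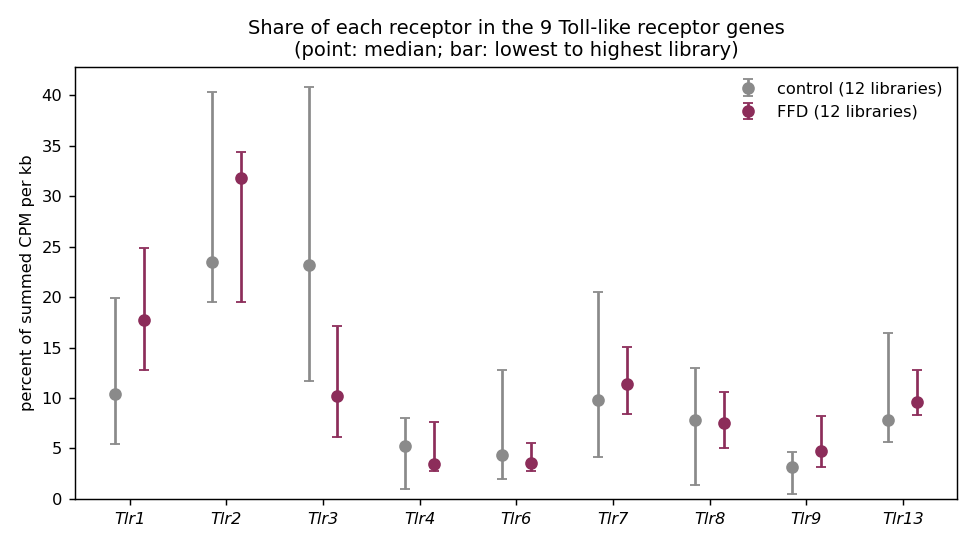
Share of each receptor in the summed CPM per kb of the 9 Toll-like receptor genes, as the median (point) and the lowest to highest library (bar) of 12 control and 12 FFD libraries. The median share of Tlr3 was 23.1% on control and 10.2% on FFD, and that of Tlr2 was 23.5% and 31.8%.

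The fitted diet difference of 9 of the 10 genes was larger in the low-Xist than in the high-Xist set of livers, and that of Tlr3 was smaller (0.15 against 0.22 on the log2 scale). Within that set, FFD and control libraries did not overlap for 9 of the 10 genes, all but Tlr3, where 12.6% of all genes separated with FFD higher. Within the high-Xist set the diets overlapped for all 10, and 3.51% of all genes separated. The same 9 genes were called higher within the low-Xist set (14.4% of all genes) and Tlr2 alone within the high-Xist set (2.9% of all genes), by edgeR with 6 libraries per diet. Calls in one set and not in the other do not show a difference, so the difference itself was tested as an interaction term.

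That term passed an adjusted p of 0.01 for 5 of the 10 genes, against 4.06% of all genes tested (edgeR). The log2 fold change of Cd14 was 2.98 in the low-Xist and 0.77 in the high-Xist set, a difference of 2.20 (SE 0.41, adjusted p = 0.00128). For Tlr13 it was 2.74 and 0.64, with a difference of 2.08 (SE 0.35, adjusted p = 0.000606). Tlr8 differed by 1.97 (adjusted p = 0.00588), Tlr9 by 1.92 (adjusted p = 0.00858) and Tlr2 by 1.34 (adjusted p = 0.00274). The terms of Tlr8 and Tlr9 lay near the limit and lost it in 10 and 19 of the 24 fits that left out 1 library, with adjusted p up to 0.0133 and 0.0226. The differences of Tlr1 (1.70, adjusted p = 0.0258), Tlr4 (1.51, adjusted p = 0.0138) and Tlr7 (1.41, adjusted p = 0.0340) did not pass. Those of Tlr6 (0.47, adjusted p = 0.518) and Tlr3 (-0.08, adjusted p = 0.907) were smaller than or close to their SEs of 0.40 and 0.29.

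**Figure D3:**
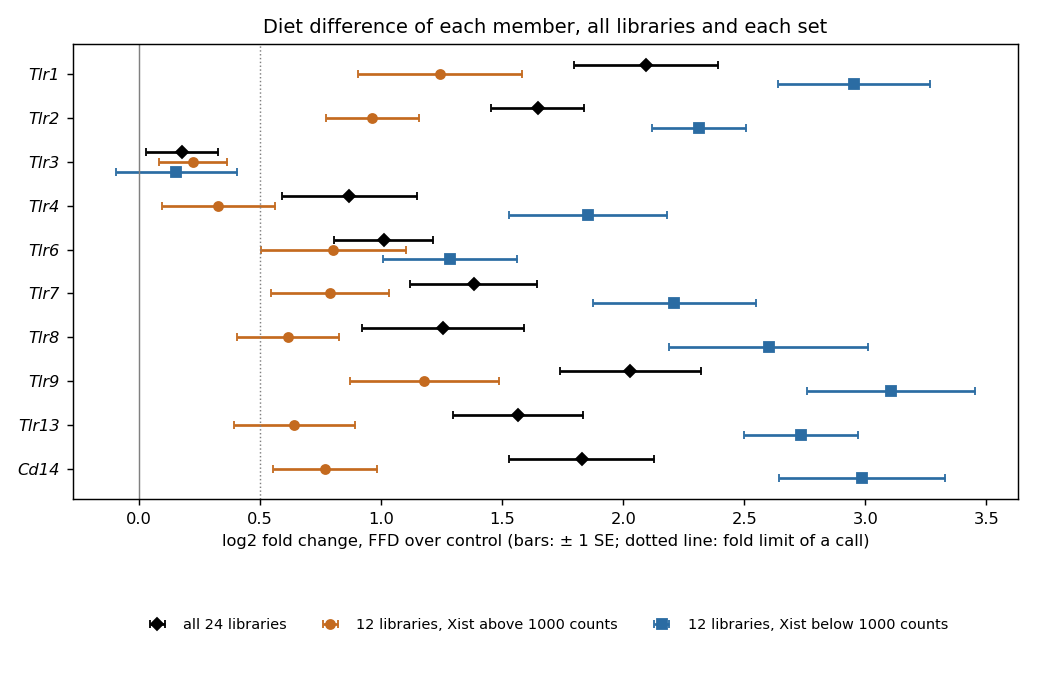
Log2 fold change of FFD over control for each gene (points, with bars of ± 1 SE) in all 24 libraries, in the 12 high-Xist libraries and in the 12 low-Xist libraries; the dotted line marks the fold limit of a call. The low-Xist values lie between 1.28 and 3.11 for every gene except Tlr3, at 0.15, and the high-Xist values between 0.22 and 1.24.

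The sets of libraries differed on both diets. On control, the mean of every member was lower in the low-Xist set. For Tlr4, 0.102 to 1.03 CPM in the low-Xist set faced 1.47 to 2.58 CPM in the high-Xist set, and for Tlr8 0.102 to 0.943 faced 1.29 to 2.50 CPM. These were the 2 members whose sets did not overlap on control, where 4.9% of all genes separated the sets in either direction. On FFD, the sets did not overlap for Tlr2, at 10.9 to 16.7 CPM in the low-Xist and 4.53 to 8.98 CPM in the high-Xist set, nor for Cd14, at 13.7 to 29.5 and 7.97 to 12.5 CPM, against 10.5% of all genes in either direction. The X-linked Tlr7, Tlr8 and Tlr13 and the autosomal members alike had lower control means in the low-Xist set.

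Markers of macrophages moved with the receptors. The counts of markers called stand against 13.2% of all genes called higher and 4.99% lower. All 5 general macrophage genes (Lyz2, Cd68, Itgam, Adgre1 and Csf1r) were higher on FFD, with log2 fold changes from 1.86 for Lyz2 to 0.998 for Csf1r, and their summed level ran from 361 to 904 CPM on FFD and from 80.5 to 340 CPM on control. Of the monocyte-derived macrophage genes 7 of 7 were higher, led by Gpnmb (5.49), Trem2 (3.47), Cx3cr1 (3.01) and Itgax (2.98). Their sum was 106 to 256 CPM on FFD and 18.5 to 56.3 CPM on control, with no overlap. Of 5 Kupffer cell genes Cd5l was called (1.69). The others, given here after their values were seen, were not called, with log2 fold changes of 0.88 for Marco, 0.38 for Vsig4, 0.20 for Clec4f and -0.74 for Timd4. Without the 3 libraries that stood apart Marco turned to -0.39 and Timd4 was at -0.87, again not called. The Kupffer cell sum overlapped, at 170 to 779 CPM on FFD and 109 to 468 CPM on control.

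The same macrophage genes differed between the sets of libraries. On control the general macrophage sum had a median of 101 CPM in the low-Xist and 204 CPM in the high-Xist set, and on FFD of 529 and 399 CPM. Ptprc, the pan-leukocyte antigen CD45, rose by 1.13 on the log2 scale (adjusted p = 8.2e-05, edgeR). Of the other leukocytes that carry Toll-like receptors, B cells had 0 of 4 genes called, with the smallest p for Cd79b (0.46, adjusted p = 0.222), and sums of 2.43 to 10.4 CPM on FFD and 2.07 to 9.68 CPM on control. Plasmacytoid dendritic cells had 0 of 4 called, with the smallest p for Cox6a2 (1.31, adjusted p = 0.0189), and sums of at most 1.48 CPM in any library. T and NK cells had 0 of 5 called, with the smallest p for Nkg7 (0.78, adjusted p = 0.0811), and conventional dendritic cells had 1 of 4, Flt3 at 1.45. None of these markers was at 0 in all libraries.

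Neutrophil genes, summing to 5.44 to 72.6 CPM on FFD and 1.36 to 5.86 CPM on control, were called higher for 4 of 5 tested over all libraries and for 1, Csf3r at 1.49, without the 3 libraries that stood apart. Of the remaining lists, 3 of 5 stellate cell genes (Pdgfrb, Dcn and Des) and 3 of 4 cholangiocyte genes (Krt19, Krt7 and Epcam) were higher, and 2 and 3 without those libraries. Stab2 was the 1 of 5 sinusoidal endothelial genes called and was not called without them. Of 5 hepatocyte genes 4 were lower (Serpina1c, Apoa1, Alb and Ttr), and 3 without those libraries. The part of any of these cell types in the level of the receptors was not tested.

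Set against the macrophage signal of the same library, the members moved unequally. The ratio of each gene's CPM to the summed CPM of Csf1r, Adgre1 and Cd68 was taken per library as a description, without a test. On the log2 scale the median ratio of Tlr1 was 1.01 higher on FFD, with 8 FFD libraries above the highest control, and that of Tlr9 was 0.77 higher. Tlr7, Tlr13, Cd14 and Tlr2 differed by 0.47, 0.40, 0.39 and 0.37, Tlr8 by 0.05, Tlr6 by -0.13 and Tlr4 by -0.21. The difference of Tlr3 was -0.79. The diets overlapped for every one of these ratios over all libraries. With Csf1r alone as the divisor, Tlr6 changed sign to 0.11, and the other 9 kept theirs with Csf1r or Ptprc alone. The ratios are given by set of libraries as well, and differences between the sets were not tested. The ratio of Tlr1 was higher on FFD by 0.90 in the low-Xist and by 1.004 in the high-Xist set, that of Tlr3 differed by -1.81 and -0.26, and that of Tlr6 turned from -0.88 to 0.49. Within the low-Xist set the ratio of Tlr1 ran from 0.0372 to 0.0447 on FFD and from 0.0161 to 0.0271 on control, without overlap, as for 0.491% of all genes with FFD higher. That of Tlr3 ran from 0.0164 to 0.0356 and from 0.0370 to 0.155, also without overlap, as for 62.4% of all genes with FFD lower. The other 8 members overlapped in the low-Xist set, and all 10 overlapped in the high-Xist set.

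**Figure D4:**
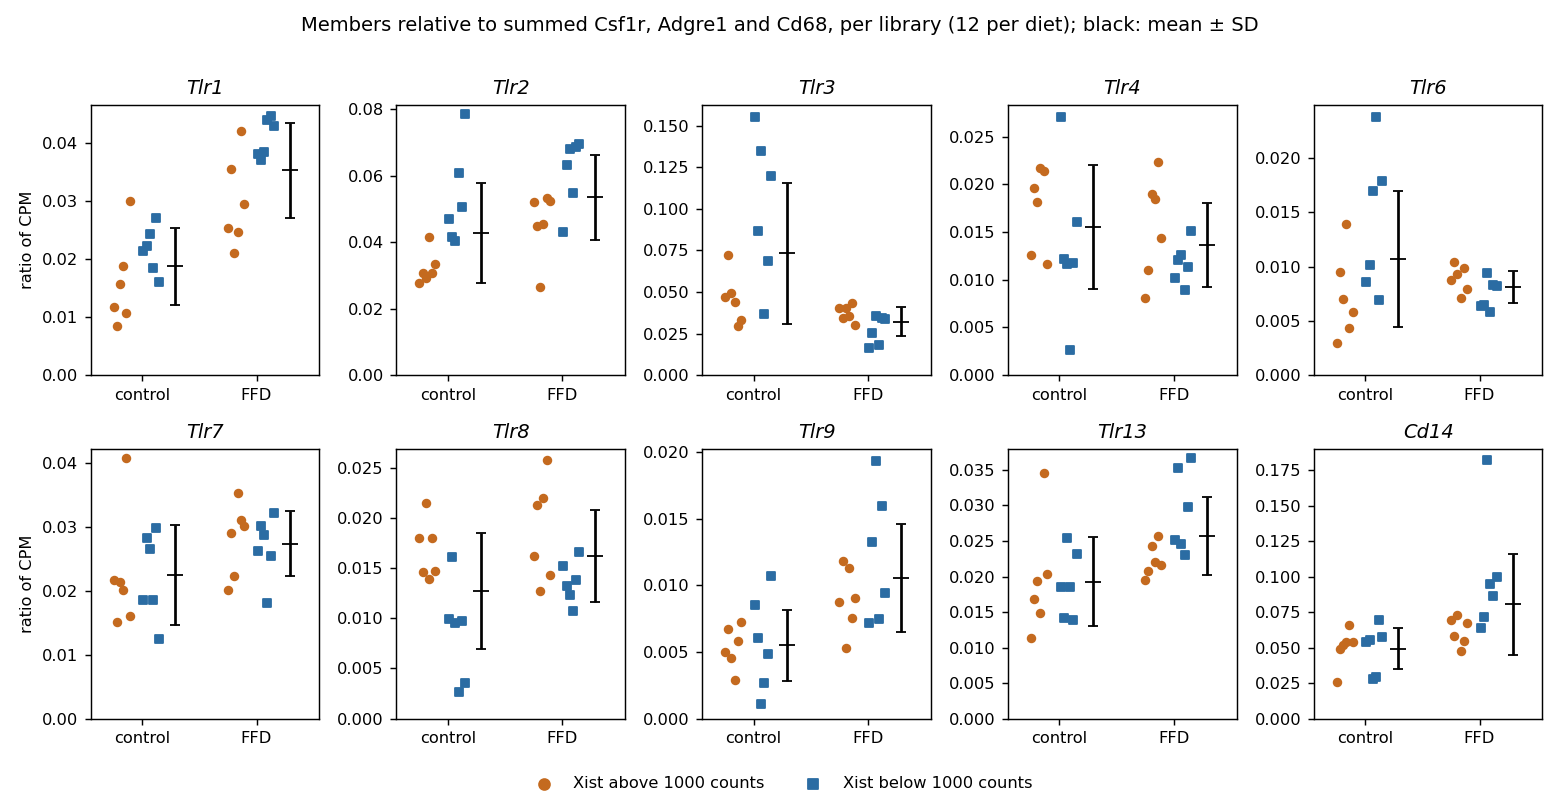
Ratio of each gene's CPM to the summed CPM of Csf1r, Adgre1 and Cd68 in every library, by diet, with circles for the high-Xist set, squares for the low-Xist set and the mean ± SD in black. Tlr1 lies higher on FFD (median 0.0377 against 0.0186), Tlr3 lies lower, and the diets overlap for all 10 genes.

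Around the receptors, the genes of the pathway moved unevenly. Of 77 genes in 9 lists, 73 were tested, 29 were higher and 1 was lower, with a median log2 fold change of 0.31. Over all genes tested, 13.2% were called higher and 4.99% lower. The 3 other mouse receptors were not called: Tlr12, a receptor of protozoan profilin, was at 37.5 ± 10.1 CPM on FFD and 26.1 ± 16.1 CPM on control, Tlr5, the flagellin receptor, at 14.3 ± 3.63 and 12.1 ± 4.33 CPM, and Tlr11 at no more than 17 counts in any library (SD, n = 12 each). Per kilobase, Tlr12 stood at 11.8 ± 3.18 CPM per kb on FFD and 8.23 ± 5.07 on control, above the mean of every member on both diets and within the SD of Cd14 on FFD.

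Among the proteins that help lipopolysaccharide sensing, 4 of 6 rose. These were Cd180 (1.85) and its partner Ly86 (1.84), which form a Tlr4-like complex on B cells and myeloid cells, the co-receptor Tril (1.33), and the scavenger receptor Cd36 (1.04). Ly96, the partner that Tlr4 needs, had 0.38 (adjusted p = 0.0503), and Lbp, the plasma protein that binds lipopolysaccharide, had -0.03 (adjusted p = 0.922). Ly96, Lbp and Myd88 and Tnf below are named for their known place in the pathway, after their values were seen.

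Of the 6 chaperones and trafficking genes 2 rose, the endosomal protease Lgmn (1.25) and Unc93b1 (0.78, adjusted p = 9.3e-07). Among the 6 adaptors only Ticam2, which links Tlr4 to Ticam1, was called, with a log2 fold change of 2.43 at 0.765 ± 0.226 against 0.132 ± 0.114 CPM. Myd88 was at 19.7 ± 2.46 and 17.6 ± 2.63 CPM, and its difference of 0.16 on the log2 scale was not called (adjusted p = 0.115). Of 16 kinases and ubiquitin ligases Ikbke (0.75) and Traf3 (0.57) rose and Chuk, the gene of IKKα, fell by 0.65 on the log2 scale. The counts of adaptors and of kinases and ubiquitin ligases called higher lay near the 13.2% of all genes.

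Of 9 transcription factors Relb (1.94), Irf8 (1.23) and Nfkb2 (1.16) rose, and 4 of 9 were called without the 3 libraries that stood apart. The others, given after their values were seen, were not called over all libraries. These were Irf5 (0.55), Nfkb1 (0.31), Irf7 (0.21), Rela (0.04), Rel (0.04) and Irf3 (-0.36). Nfkb1 and Irf3 passed the adjusted p but not the fold limit. Relb and Nfkb2 form the non-canonical NF-κB pair, and Irf8 is a factor of the monocyte lineage. Of 10 negative regulators tested 4 rose: the deubiquitinase Tnfaip3 (1.42), Irak3 (1.11), Tnip1 (1.08) and Socs1 (1.07). The list had a median log2 fold change of 0.05. Its other tested genes, given after their values were seen, were not called. Nfkbia was at 0.23, and Dusp1 (-0.53), Tollip (-0.34), Cyld (-0.32), Sigirr (-0.23) and Rnf216 (-0.14) were below 0. Tollip and Cyld passed the adjusted p but not the fold limit.

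Response genes rose for 8 of the 11 tested, led by the chemokines Ccl2 (3.15), Ccl3 (3.07) and Ccl4 (2.42) and by Nos2 (2.41), and for 9 without the 3 libraries. Tnf was at 0.843 ± 0.414 CPM on FFD and 0.191 ± 0.106 CPM on control. Il6 held at most 2 counts in any library, Ifnb1 was at 0 in all 24, and neither they nor Ptgs2 passed the filter on low counts. Of 6 endogenous molecules described as receptor ligands 5 were called higher. S100a8 (4.28) and S100a9 (3.79) owed their size to FFD replicate 3, with 1242 and 1537 counts against at most 37 and 40 elsewhere, and had 1.49 and 1.05 without the 3 libraries that stood apart. Vcan (2.67), Tnc (2.04) and Bgn, matrix proteins, were called as well.

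**Figure D5:**
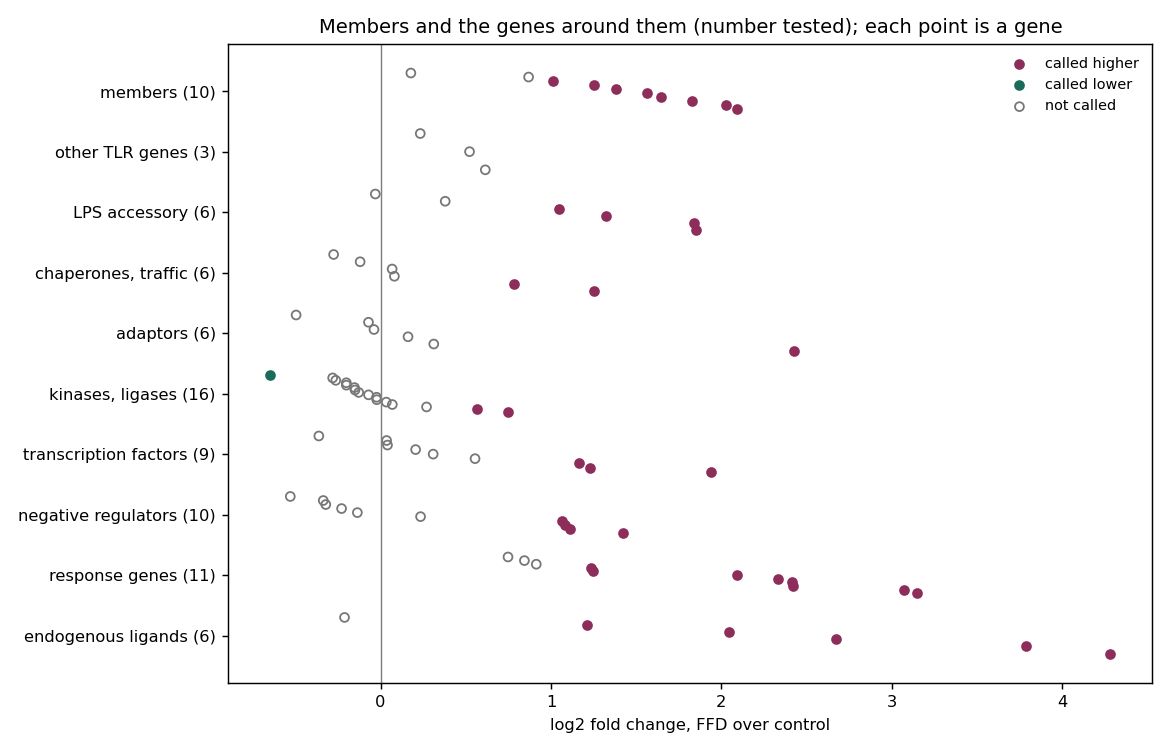
Log2 fold change of FFD over control for the 10 members and for the genes of the 9 lists that passed the filter (number in brackets), one point per gene, filled where the gene was called. Among the kinases and ubiquitin ligases 2 of 16 genes are called higher and 1 lower, among the adaptors 1 of 6, among the response genes 8 of 11 and among the members 8 of 10. Over all genes tested the shares are 13.2% higher and 4.99% lower.

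After the means of diet and set of libraries were taken out, the genes that followed each member most closely over the 24 libraries were named, with Pearson's r of log2(CPM + 1) over 12776 genes as a description. Tlr1 went with Clec12a (r = 0.88), Tbxas1 (0.87) and the macrophage gene Adgre1 (0.87), and Tlr2 with the fungal receptor Clec7a (0.88), the anaphylatoxin receptor C3ar1 (0.85) and Ifi27l2b (0.85). Tlr13 went with Rgs1 (0.87), Sla (0.83) and B3galnt1 (0.81), and Cd14 with Cnn2 (0.87), Vim (0.86) and Adamts14 (0.84). Tlr7 was close to Ifi207 (0.78), to its neighbour Tlr8 (0.76) and to Sla (0.75), and Tlr8 to Pik3c2g (0.79), Sdc3 (0.79) and Siglec1 (0.79). Tlr3 went with the choline dehydrogenase gene Chdh (0.94, Spearman's rho 0.77), followed by Twsg1 (0.90, rho 0.71) and Taf1 (0.90, rho 0.69). In control replicate 10 Tlr3 was at 1.43 CPM, where the next lowest control library held 3.58 CPM. The weight of that library in these values was not tested. The values of Tlr4 (Gm10143, 0.79), Tlr6 (Snx6, 0.80) and Tlr9 (Nudt18, 0.79) rest on low counts. Control counts were low for other members too, with medians of 21 for Tlr8, 22.5 for Tlr1, 25.5 for Tlr13 and 35 for Tlr7. All these values come from the same 24 libraries and share their scaling. Between members, r was highest for Tlr7 and Tlr8 (0.76) and for Tlr1 and Tlr2 (0.74), and that of Tlr1 and Tlr6, which share sequence, was 0.38.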

How the data were processed

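RNA was measured in 24 mouse livers, 12 per diet, grouped by their labels. Per the submitters' processing notes, reads were handled with bcl2fastq and aligned with STAR 2.7.3a to mm10, and the authors deposited 1 table of whole-number read counts per Ensembl gene, not normalised. The counting program, its annotation and its use of strand are not given in the sources used here. Of 56205 gene IDs 51745 matched GENCODE M21 (GRCm38), from which symbols, positions and exon lengths were taken. The design text counts mice, but no label ties a library to an animal, so p-values measure the spread between these samples. The closest libraries of a diet differed by a chi-square of 9.47 per degree of freedom, so none was counted as a duplicate.

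From the deposited counts, genes detected (1 or more counts) in 12 or more libraries were tested with edgeR 4.0.16 (glmQLFit and glmQLFTest, TMM, diet only) in R 4.3.3. A call needed an adjusted p of at most 0.01 over all genes tested and an absolute log2 fold change over 0.5. Permutation tests used scipy 1.17.1 with a pseudocount of 1. The interaction of diet and set of libraries used the same test, with sets divided at 1000 counts of Xist. On simulated counts for FFD against control over 17913 genes, 71 of 100 genes changed by a fold of 2 and 97 of 100 changed by a fold of 4 were called in the right direction, with 3 false calls. The changed genes were drawn above a minimum mean level, with as many raised as lowered. No separate difference between the sets of libraries was simulated, so these rates may not hold for the real counts.

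The members and lists were chosen with earlier results of these data known. Named list genes were those called, at most 4 by size of change, or the one with the smallest p where none was called, with the exceptions named in the text. Alternatives were library totals, DESeq2 1.42.0 (its size factors and its test), limma-voom 3.58.1, other filters and thresholds, the replicate number as a block, the set of libraries as covariate or stratum, and leaving out libraries. Leaving out the 3 libraries that stood apart was chosen after seeing the data. Depth limits the counts of low genes, and counting error is only part of their spread.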

Additional observations from a re-analysis of the deposited data

Results flagged for a closer look

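The diet difference of 5 members differed between the sets of libraries by the test of the interaction term (edgeR, adjusted p at most 0.01 over all genes tested). On the log2 scale the difference of the fold changes, low-Xist minus high-Xist, was 1.34 for Tlr2, 1.97 for Tlr8, 1.92 for Tlr9, 2.08 for Tlr13 and 2.20 for Cd14. Of all genes tested 4.06% passed the same test. The terms of Tlr8 and Tlr9 lost the call in 10 and 19 of the 24 fits that left out 1 library, and those of Tlr2, Tlr13 and Cd14 in 0. Macrophage genes moved with it: the summed general macrophage genes had medians of 529 and 101 CPM on FFD and control in the low-Xist set, and of 399 and 204 CPM in the high-Xist set. Their part in the result was not tested. The sets also differ in replicate number, 1 to 6 against 7 to 12, so that any handling that followed these numbers cannot be told apart from the sets.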

How the results depend on the processing

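All 10 members kept a log2 fold change above 0 in the 14 other settings and the 24 fits that left out 1 library, within the settings that tested them. The number of members called higher was 8, and 8 to 9 with 1 library left out. It was 2 of the 3 members that held at least 10 counts in every library, and 1 within the high-Xist set. Genes called higher over the whole table were 2372, and 3827 with library totals, 1226 with at least 10 counts in every library, 3709 at an adjusted p of 0.05 with no fold limit, 520 within the high-Xist set, and 2188 to 2468 with 1 library left out. Genes called lower were 894, and 226 with library totals, 3388 at an adjusted p of 0.05, 216 with a fold limit of 1, 158 and 1431 within the high-Xist and low-Xist set, and 700 to 995 with 1 library left out. Pathway genes called higher were 29, and 14 with at least 10 counts in every library, 13 within the high-Xist set, and 27 to 30 with 1 library left out. Pathway genes called lower were 1, and 0 with library totals, with a fold limit of 1 and within the high-Xist set, 12 at an adjusted p of 0.05, 2 within the low-Xist set, and 1 to 2 with 1 library left out, where FFD replicate 4 and control replicate 10 each gave 2. The causes were not tested, other than fewer genes or libraries entering a fit.

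Within the high-Xist set, calls were lost for Tlr1 (1.24), Tlr6 (0.80), Tlr7 (0.79), Tlr8 (0.62), Tlr9 (1.18), Tlr13 (0.64) and Cd14 (0.77). Tlr4 was called with library totals (1.12), DESeq2 (0.89), limma-voom (1.04), an adjusted p of 0.05 (0.87), the set as covariate (1.02) and within the low-Xist set (1.86). With 1 library left out Tlr4 ran from 0.77 to 0.99 and was called without control replicate 4 or 5. The interaction terms of Tlr1, Tlr4 and Tlr7 passed with library totals (2.03, 1.83 and 1.70) and without control replicate 11 (1.99, 1.63 and 1.72), with ranges of 1.21 to 1.99, 1.34 to 1.67 and 1.16 to 1.72 over libraries left out. Those of Tlr8 and Tlr9 ran from 1.77 to 2.26 and from 1.66 to 2.05. The term of Tlr3 changed sign with library totals (0.25) and without control replicate 5 (0.00903) or 9 (0.0603), over a range of -0.25 to 0.0603.

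Same-numbered libraries of the diets correlated in their deviations by 0.155 to 0.541 for 11 of 12 numbers and by -0.0935 for replicate 9, and by -0.286 to 0.317 once the means of the sets, which follow the numbers, were taken out. No label says what a number shares, so the samples were not treated as paired. With the replicate number as a block, 8 members were called higher, 2063 genes were called higher and 844 lower, and 27 pathway genes were called higher and 1 lower; 2716 genes were called with and without the block.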
